A study of Rattus norvegicus with 4 samples.

Results

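Transforming growth factor beta (TGF-beta), the bone morphogenetic proteins (BMPs) and the activins form a family of secreted signals, and the 34 genes described here encode its ligands, the proteins that store or capture them, their receptors, the inhibitors that act inside the cell and direct targets. The genes were taken by symbol from the deposited feature table, and all 34 were found among its 25399 genes. They were measured by droplet single-cell RNA sequencing of cells from digested muscle of rats aged 12 months, either the tibialis anterior (TA) of the lower leg or the eye-moving extraocular muscles (EOM). Each muscle has 1 library labelled wild-type (WT) and 1 labelled DMD, the abbreviation for Duchenne muscular dystrophy. The strain, the sex, the number of animals per library and the dystrophin change carried by the DMD rats are not stated in the sources used here. No group received a treatment.

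In all 4 samples the disease state field of the labels and the sample title contradict each other. Groups follow the disease state field, so TA-WT, TA-DMD, EOM-WT and EOM-DMD name libraries by that label, and reading the titles instead would turn each DMD over WT direction given here and exchange which comparison between the muscles is called WT and which DMD. The filters left 2083 (TA-WT), 7964 (TA-DMD), 1249 (EOM-WT) and 2261 (EOM-DMD) cells, with medians of 1221.5 to 4486 unique molecular identifiers (UMIs) per cell, lowest in TA-DMD. Between 0 and 5 cell barcodes were shared by any pair of libraries. Dmd, the dystrophin gene, stood at 29.6 and 25.4 CPM (counts per 1e6 UMIs) in TA-WT and TA-DMD and at 26.8 and 21.0 in EOM over whole libraries, and since the altered part of the gene is not given, its 3′ tags do not check the labels. Cell classes were rebuilt from marker genes and are called X-like. In the classes they define, 9 of 9 endothelial and 10 of 10 mural markers were detected in every library. Satellite-like cells of EOM-DMD had 7 of 8 satellite markers (Msc at 0), and myofibre-like cells of TA-DMD 10 of 11 (Myh7 at 0). Summed endothelial markers of endothelial-like cells stood at 5820 CPM in TA-DMD and at 9397 to 9736 CPM in the other libraries. In satellite-like cells the summed fibroblast markers exceeded the satellite markers in TA-DMD (4130 and 2752 CPM) and EOM-DMD (3272 and 2820.5 CPM).

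In this family the ligands bind pairs of type I and type II receptors, which phosphorylate SMAD proteins that enter the nucleus. TGF-beta is secreted in a latent form tethered to the matrix by latent TGF-beta binding proteins (LTBPs), and BMPs and activins are held back by soluble antagonists such as the chordin-like proteins, gremlin and follistatin. In dystrophic muscle TGF-beta is known for fibrosis and LTBP4 as a modifier of disease, while BMP signalling is known to keep muscle stem cells from differentiating and to act on vessels, where the ID proteins are its classical targets.

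Levels are UMIs summed over the cells of a class in 1 library, as CPM of that sum, with 95% exact Poisson intervals in parentheses. Each 3' tag marks 1 transcript end, so CPM is not scaled by gene length. A gene was compared in a class with at least 50 cells in both libraries where it reached 25 CPM in 1 library and 10 UMIs over both, and it was called higher or lower where the log2 ratio, computed with 10 CPM added to both sides, was at least 1 in size, which is 2-fold. Fold changes are plain CPM ratios, with 95% exact counting intervals. All intervals cover counting error only. With 1 library per group no test across libraries was possible, no p-value is given, and no difference has a replicate check. The 4 contrasts share their libraries and are not independent.

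Promoter sequences are shown for 4 members that later results turn on, as the 250 bases before the transcript start in RefSeq's GRCr8 assembly, 5′ to 3′ on the gene's strand. RefSeq promoter entries matched 29 of the 34 members. The motifs searched, on both strands, were GGCGCC, a palindrome known from BMP-responsive elements, GTCTAGAC, the palindromic SMAD site, and CAGACA, a SMAD-binding element whose other strand reads TGTCTG. Capitals mark a match. Id1 (chr3:161671314-161671563, plus strand) and Id3 (chr5:153656041-153656290, plus strand) are the targets that were lower together in endothelial-like cells, Pmepa1 (chr3:182478650-182478899, minus strand) is the inhibitor that was lower in satellite-like cells of both muscles, and Bmp4 (chr15:22101934-22102183, minus strand) is the ligand that was higher in endothelial-like cells of TA.
Id1: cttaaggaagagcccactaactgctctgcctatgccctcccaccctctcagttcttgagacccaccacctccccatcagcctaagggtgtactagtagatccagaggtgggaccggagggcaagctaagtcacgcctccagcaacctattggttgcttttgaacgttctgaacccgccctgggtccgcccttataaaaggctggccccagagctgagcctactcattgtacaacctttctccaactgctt
Id3: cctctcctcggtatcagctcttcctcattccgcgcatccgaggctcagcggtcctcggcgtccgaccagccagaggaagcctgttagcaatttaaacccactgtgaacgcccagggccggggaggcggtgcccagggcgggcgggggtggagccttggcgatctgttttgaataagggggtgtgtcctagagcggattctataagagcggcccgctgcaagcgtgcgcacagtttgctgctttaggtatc
Pmepa1: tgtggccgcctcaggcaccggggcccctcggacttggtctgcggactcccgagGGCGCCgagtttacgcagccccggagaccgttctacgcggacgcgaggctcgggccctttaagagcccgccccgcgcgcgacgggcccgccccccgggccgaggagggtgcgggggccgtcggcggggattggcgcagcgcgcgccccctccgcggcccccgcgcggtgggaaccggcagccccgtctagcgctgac
Bmp4: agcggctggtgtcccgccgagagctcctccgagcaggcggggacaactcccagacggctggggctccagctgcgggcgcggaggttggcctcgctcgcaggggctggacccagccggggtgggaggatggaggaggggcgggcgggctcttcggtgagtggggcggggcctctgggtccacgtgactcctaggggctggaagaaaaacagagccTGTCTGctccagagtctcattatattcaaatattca
The windows of Id1 and Id3 held none of the 3 motifs, which says only that these letters are not in these windows. The window of Pmepa1 held GGCGCC starting 197 bases before the start, and that of Bmp4 held TGTCTG starting 36 bases before it. Of all 33469 promoter windows, GGCGCC was in 8.69%, CAGACA in 17.2% and GTCTAGAC in 0.173%. Among the 29 member windows, 9 held GGCGCC (Skil, Grem1, Pmepa1, Tgfbr1, Inhbb, Tgfbr3, Gdf10, Bambi and Smad7), 1 held CAGACA and 0 held GTCTAGAC. A match is a description and not evidence of binding.

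Members of 1 role peaked in different classes. Of the 34, 29 reached 25 CPM in at least 1 class of 50 or more cells, and Bmp6, Inhbb, Grem1, Smad6 and Mstn did not. The targets Id1 and Id3 were highest in endothelial-like cells of TA-WT, at 1747 and 1653 CPM. The binding protein Ltbp4 led in satellite-like cells, the muscle stem cells, at 1655 CPM in EOM-WT, and the antagonist Chrdl2 was at or under 7.24 CPM in every other class of at least 50 cells. The co-receptor Tgfbr3, also called betaglycan, led in tenocyte-like cells of EOM-DMD at 1011 CPM, and the follistatin-like protein Fstl1 in FAP/fibroblast-like cells of EOM-WT at 567 CPM (FAPs are fibro-adipogenic progenitors).

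**Figure D1:**
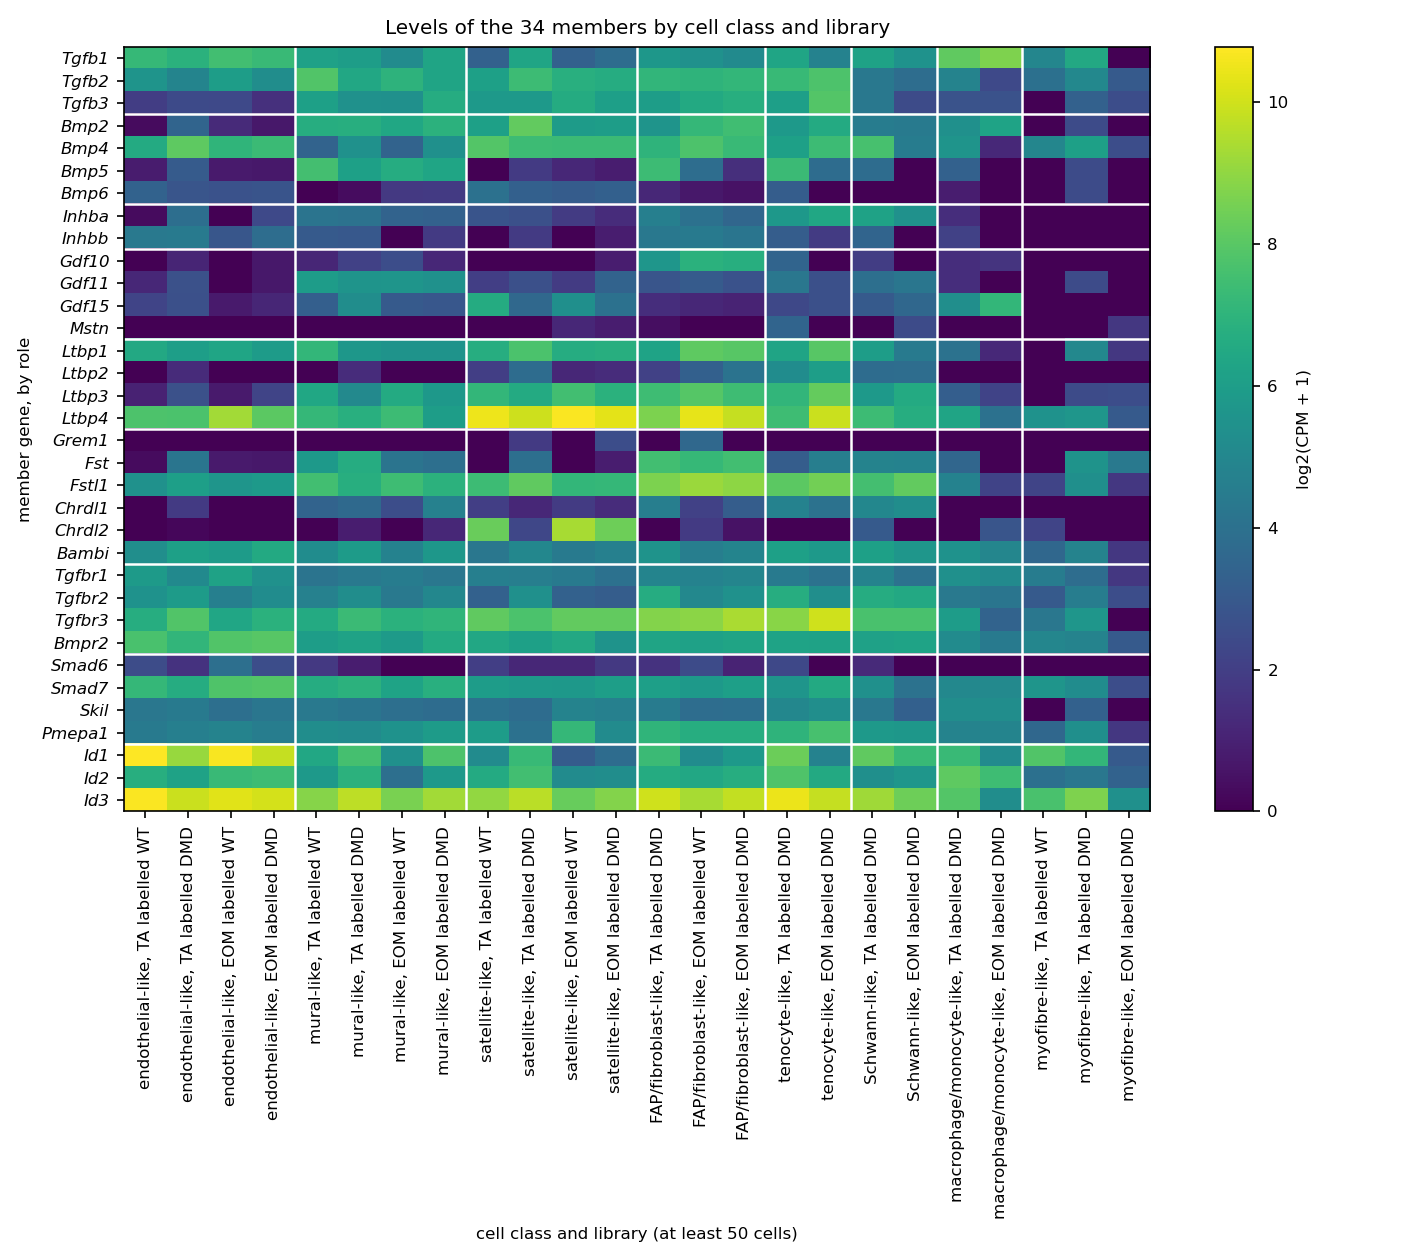
Heat map of log2(CPM + 1) for the 34 members (rows, grouped by role) in 8 cell classes of each library with at least 50 cells (columns). Id1 is brightest in endothelial-like columns, where it reaches 1747 CPM, Id3 is bright in most classes, Ltbp4 is brightest in satellite-like columns, and the row of Chrdl2 is dark outside the satellite-like columns of TA-WT and both EOM libraries.

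Counted over every gene and class compared, TA-DMD against TA-WT gave 28 member pairs higher and 8 lower of 82, beside 19.7% and 4.88% of all gene and class pairs. Of the 28, 13 lay in erythroid-like cells, where all 13 members tested were higher, beside 95.4% of all 3713 genes tested there (1.8% were lower). Globin made up 30% of the UMIs of erythroid-like cells in TA-DMD and 91.3% in TA-WT, and the part of this in the result was not tested. Without erythroid-like cells 15 pairs were higher and 8 lower of 69, beside 6.65% and 5.41% of all pairs. EOM-DMD against EOM-WT gave 5 higher and 4 lower of 75, beside 2.09% and 1.68%. EOM against TA gave 3 higher and 8 lower of 56 among libraries labelled WT (1.46% and 3.2% of all pairs) and 14 higher and 36 lower of 149 among libraries labelled DMD (4.11% and 7.52% of all pairs).

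Erythroid-like cells should lack these genes, so their mean UMIs per cell were used as a reference for RNA from other cells. In TA-DMD the 158 UMIs of Id1 in them lay in 70 of the 271 cells, with 31 in 1 cell. Whether such UMIs come from free RNA or from cells captured together was not tested. In TA-DMD the reference was 0.583 UMIs per cell for Id1, 0.878 for Id3, 0.284 for Bmp4 and 0.273 for Tgfbr3, against 0.0148 for Bmp2. Members at or below the upper counting limit of that reference are not told apart in that class from RNA of other cells, called background here. In EOM-DMD the reference rests on 10 erythroid-like cells, so that even 0 UMIs allow up to 0.369 per cell, and it separates little there. For Id1 in TA-DMD only endothelial-like (1.54 UMIs per cell) and Schwann-like cells (0.707) passed that limit among the classes compared. Of the 28 pairs higher in TA-DMD, the 13 in erythroid-like cells cannot be set against this reference. Of the other 15, 9 lay above it, and no share over all genes was computed to stand beside this count. Per-cell references compare classes within a library, and the 271 erythroid-like cells of TA-DMD carried 1035 UMIs per cell outside globin.

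**Figure D2:**
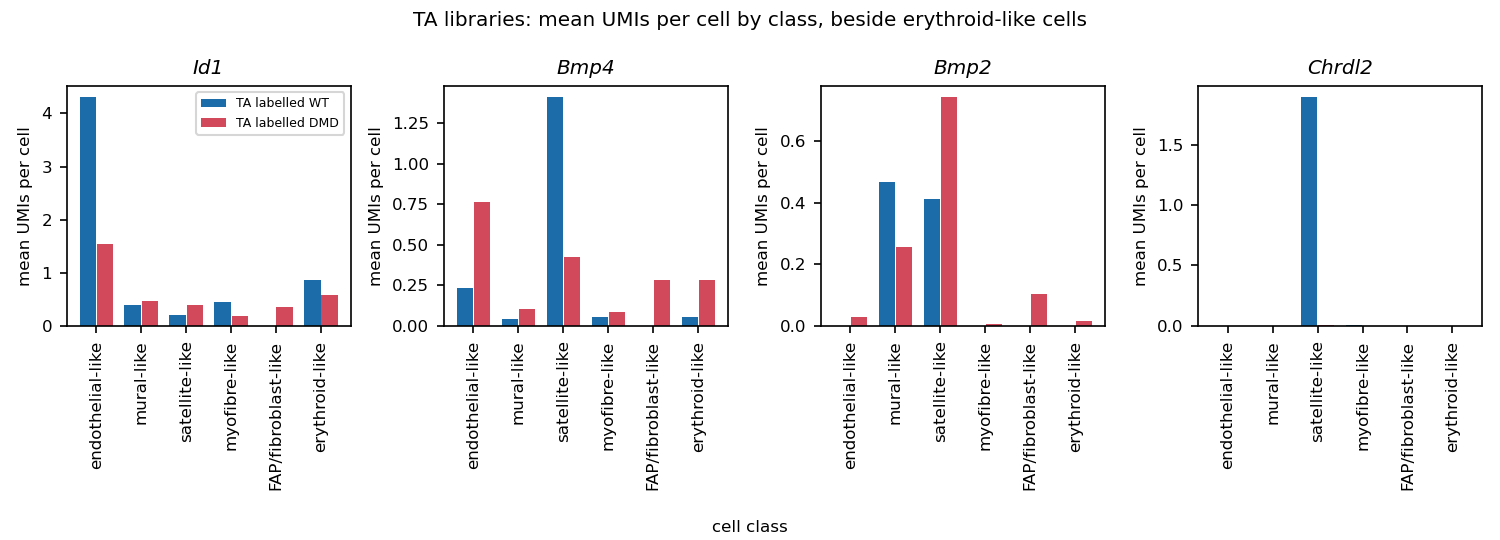
Mean UMIs per cell of Id1, Bmp4, Bmp2 and Chrdl2 (bars, vertical axis) by cell class in TA-WT and TA-DMD, with erythroid-like cells at the right of each panel. Classes with fewer than 50 cells in a library have no bar. Id1 in mural-like, satellite-like and FAP/fibroblast-like cells of TA-DMD lies below the 0.583 UMIs per cell of erythroid-like cells, while Bmp2 in satellite-like cells, at 0.741, lies above 0.0148.

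Among targets in endothelial-like cells, the lining of vessels, Id1 and Id3 were lower in both libraries labelled DMD. Id1 encodes an inhibitor of differentiation that blocks basic helix-loop-helix factors. Its level was 1747 CPM (1705 to 1789) in TA-WT, 552 (535 to 568) in TA-DMD, 1607 (1542 to 1674) in EOM-WT and 916 (870 to 963) in EOM-DMD. Both libraries labelled WT were thus high and both labelled DMD low, with no overlap of the counting intervals. The difference was 3.17-fold lower (3.05 to 3.29) in TA, a log2 ratio of -1.65, and 1.75-fold lower (1.64 to 1.87) in EOM, a log2 ratio of -0.80 that does not reach 2-fold. Id3, a close relative, stood at 1653 CPM (1612 to 1694), 971 (950 to 993), 1246 (1188 to 1305) and 1095 (1045 to 1147) in the same order of libraries. Its differences of 1.70-fold in TA and 1.14-fold in EOM did not reach 2-fold. Id2, the third relative measured, had 107, 72.5, 156 and 170 CPM, so that it was lower with the DMD label in TA alone. The difference between the muscles was not tested.

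In all, 4 endothelial-like clusters had at least 50 cells in every library, and they were compared one by one because the libraries share them unequally. Cluster 0, led by Ca4 and Rgcc, cluster 1, led by Cxcl12 and Aqp1, and cluster 4, led by Esm1 and Kdr, carry capillary genes, and cluster 10 is led by Igfbp3, with the arterial genes Gja5 and Dll4 among its leaders. Id1 was lower with the DMD label in 4 of 4 clusters in TA (log2 ratios -1.67 to -1.15) and in 4 of 4 in EOM (-1.34 to -0.52). Id3 was likewise lower in 4 of 4 in TA (-0.93 to -0.69) and in 4 of 4 in EOM (-1.06 to -0.02). Cluster 8, led by Plvap with the adhesion genes Selp and Sele, held 823 of the 2834 endothelial-like cells of TA-DMD and 13, 6 and 26 cells in TA-WT, EOM-WT and EOM-DMD. Cluster 7, led by Gpihbp1 and Cldn5 with a median of 731 UMIs per cell, held 431 cells of TA-DMD and 41, 8 and 26 in the same order. Cells of clusters 7 and 8 are thus outside the comparison by cluster. Over all 15 members tested in endothelial-like cells of TA, 2 were higher and 1 lower, with a median log2 ratio of -0.42, beside -0.14 over 5660 genes, of which 4.89% were higher and 3.43% lower. In EOM 0 were higher and 1 lower of 16, beside 1.48% and 0.945% of all genes, with a median of -0.05 beside -0.08.

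**Figure D3:**
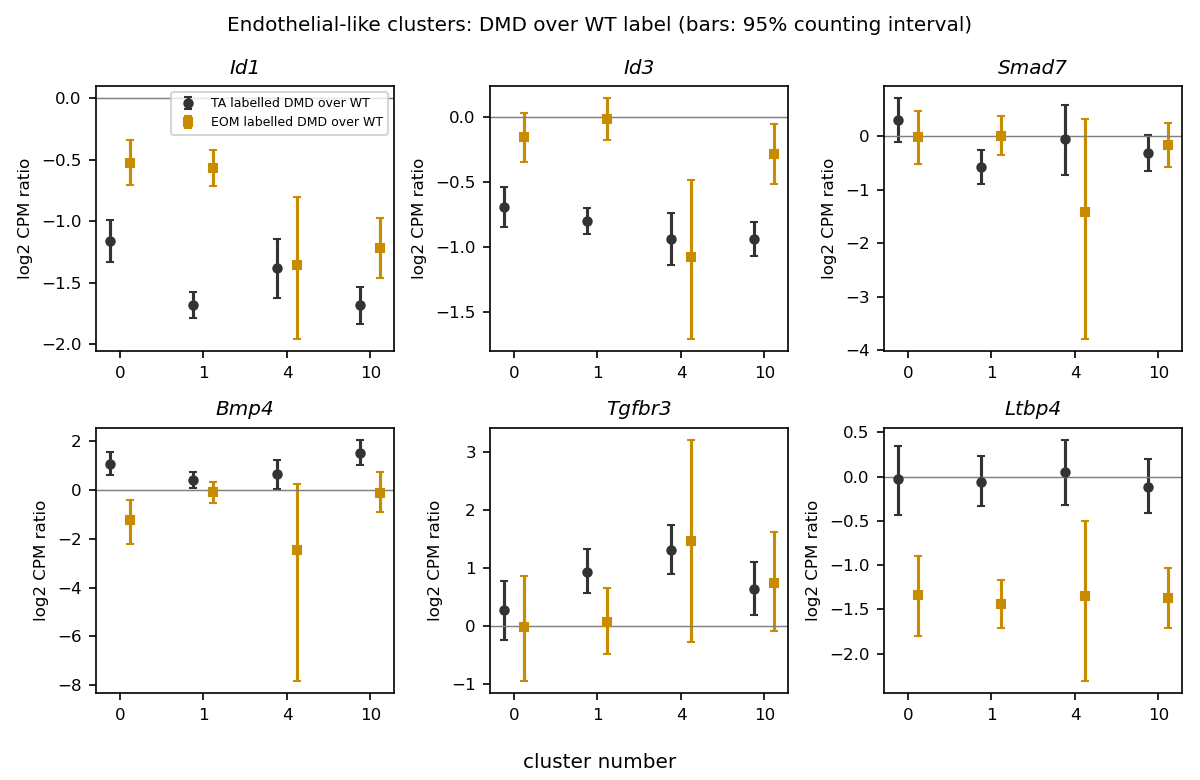
Log2 CPM ratio, DMD over WT label, of 6 members in each of 4 endothelial-like clusters (horizontal axis: cluster number), for TA (circles) and EOM (squares), with bars for the 95% counting interval. Id1 lies below 0 in all 4 clusters of both muscles, and Ltbp4 lies near 0 in TA and between -1.40 and -1.29 in EOM on the scale with 10 CPM added.

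Smad7, the inhibitory SMAD that TGF-beta and BMP signals themselves induce, did not reach 2-fold with the DMD label in endothelial-like cells of either muscle. It stood at 145 CPM (133 to 157) in TA-WT, 102 (94.8 to 109) in TA-DMD, 225 (201 to 251) in EOM-WT and 238 (215 to 263) in EOM-DMD. Both EOM libraries were above both TA libraries. Among libraries labelled DMD, EOM was 2.34-fold higher (2.07 to 2.64), but within cluster 4 it was lower by a log2 ratio of -0.38. Id2 was 2.35-fold higher (2.03 to 2.71) in EOM in the same contrast, with -0.57 within cluster 4. In EOM-DMD neither lay above the upper limit of the erythroid-like reference, with 0.673 UMIs per cell against 0.877 for Smad7 and 0.481 against 0.722 for Id2, so background is not told apart from expression for them. Smad6, the inhibitory SMAD with a preference for BMP receptors, had 2.02 to 14.1 CPM in endothelial-like cells, too few for a comparison.

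The ligand called with the DMD label in endothelial-like cells was Bmp4, in TA. Bmp4, a BMP ligand, had 94.2 CPM (84.8 to 104) in TA-WT, 274 (263 to 286) in TA-DMD, 133 (115 to 153) in EOM-WT and 162 (143 to 183) in EOM-DMD. TA-DMD was the high library, 2.91-fold above TA-WT (2.60 to 3.26). Within the 4 clusters the log2 ratio in TA ran from 0.38 to 1.39 in place of 1.45, and in EOM it ran from -1.94 to -0.09, below 0 in 4 of 4, against 0.27 for the whole class. In EOM the class and its clusters thus differed in direction, and in EOM-DMD its 0.459 UMIs per cell lay under the reference limit of 0.877. Its per-cell level in TA-DMD, 0.766 UMIs, was above the erythroid-like reference.

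Ltbp4, which tethers latent TGF-beta, had 216 CPM (202 to 231) in TA-WT, 211 (201 to 222) in TA-DMD, 618 (577 to 660) in EOM-WT and 267 (243 to 293) in EOM-DMD. EOM-WT stood alone at the high end. It was 2.86-fold above TA-WT (2.59 to 3.14), and EOM-DMD was 2.31-fold below it (2.06 to 2.60). The ratio with the DMD label was lower in 4 of 4 clusters in EOM (log2 ratios -1.40 to -1.29), whereas in TA it ran from -0.11 to 0.05. Ltbp4 was also 2.62-fold lower (1.79 to 3.86) with the DMD label in mural-like cells of EOM, at 166 CPM against 63.5. In FAP/fibroblast-like cells of EOM it was 1.46-fold lower (1.38 to 1.54), at 1333 against 915 CPM, and in satellite-like cells 1.27-fold lower (1.18 to 1.37), at 1655 against 1302 CPM. Ltbp4 was thus lower with the DMD label in each of the 4 classes compared in EOM, past 2-fold in endothelial-like and mural-like cells.

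Of the receptors, Tgfbr3 was called higher in endothelial-like cells of TA-DMD. Tgfbr3, which presents ligand to the signalling receptors, stood at 104 CPM (94.1 to 115), 226 (216 to 237), 82.4 (68.1 to 98.7) and 115 (99.3 to 133) in TA-WT, TA-DMD, EOM-WT and EOM-DMD. TA-DMD was high, 2.17-fold above TA-WT (1.95 to 2.43), with log2 ratios of 0.25 to 1.23 within clusters. The log2 ratio was 0.83 after thinning cells to 1000 UMIs. Thinning leaves out cells below that, and 1928 of 2834 cells in TA-DMD and 1359 of 1560 in TA-WT remained. Bmpr2, the type II BMP receptor, had 202, 136, 230 and 248 CPM, and Tgfbr1, a type I TGF-beta receptor, had 57, 33.7, 72.5 and 43 CPM. The decoy receptor Bambi had 38.8, 69.3, 59.9 and 92 CPM and was higher with the DMD label in both muscles, by 1.79-fold (1.49 to 2.16) and 1.54-fold (1.17 to 2.03), short of 2-fold, but in EOM-DMD its 0.26 UMIs per cell lay under the reference limit of 0.557. Markers of fibroblasts moved with the TA contrast, at a sum of 99.9 CPM over 8 markers in endothelial-like cells of TA-WT and 1256 in TA-DMD, with Pdgfra at 0 in the former. The sum was 283 and 335 in the EOM libraries. The sum of 10 mural markers was 32 CPM in TA-WT, 646 in TA-DMD, 24.6 in EOM-WT and 61.2 in EOM-DMD, with Cnn1 at 0 in all but TA-DMD, and the part of either list in these results was not tested.

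Satellite-like cells showed the largest differences of any antagonist. Chrdl2 encodes a chordin-like protein that binds BMPs. It was detected with 106 UMIs in 56 cells of TA-WT, 3 UMIs in 301 cells of TA-DMD, 505 UMIs in 134 cells of EOM-WT and 413 UMIs in 225 cells of EOM-DMD. This gave 319 CPM (261 to 385), 3.85 (0.793 to 11.2), 663 (606 to 723) and 332 (300 to 365). TA-DMD stood apart at the low end, while EOM-DMD and TA-WT had overlapping intervals. Chrdl2 was 82.8-fold lower (27.6 to 408) in TA-DMD than in TA-WT and 2.0-fold lower (1.75 to 2.28) in EOM-DMD than in EOM-WT, where the log2 ratio of -0.98 falls just short of the call.

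The satellite-like class is made of cluster 11, led by Nppc, with 50, 64, 133 and 222 cells in the order of libraries above, and cluster 17, led by Cpa1 and Myf5, with 6, 237, 1 and 3. Most of the class in TA-DMD thus lies in another cluster than in the other libraries. Within cluster 11 alone Chrdl2 had a log2 ratio of -4.78 in TA and -0.91 in EOM. Chrdl2 is among the 10 leading genes of cluster 11, so it also took part in forming that cluster. Over the 30 class and library pairs with at least 50 cells, the genes with the pattern most like that of Chrdl2 were Dcx (Pearson r = 0.979), Nppc (0.972) and Sphkap (0.934), as a description across pairs that share libraries and depth.

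In satellite-like cells the ligands Bmp2, Tgfb1 and Tgfb2 were higher in TA-DMD, while Bmp4 stood at 237 CPM in TA-WT and 164 in TA-DMD and Tgfb3 at 54.1 and 56.4. Bmp2, a BMP ligand, stood at 69.1 CPM (43.8 to 104) in TA-WT, 286 (250 to 326) in TA-DMD, 59.1 (43.1 to 79) in EOM-WT and 63.4 (50.2 to 79) in EOM-DMD. Only TA-DMD was high, 4.14-fold above TA-WT (2.69 to 6.66) and 4.51-fold above EOM-DMD (3.47 to 5.90). Its log2 ratio in TA was 1.90, and it was 2.20 within cluster 11 and 1.86 after thinning to 1000 UMIs per cell. Thinning leaves out cells below 1000 UMIs, and it kept 158 of 301 satellite-like cells of TA-DMD and 55 of 56 of TA-WT. Thinned ratios of this class in TA thus change depth and the set of cells together. At 0.741 UMIs per cell Bmp2 lay far above the erythroid-like reference of 0.0148. Chrdl2 and Bmp2, an antagonist and a ligand of the BMP branch, thus differed in opposite directions in these cells of TA, and in EOM Bmp2 differed by 1.07-fold (0.735 to 1.58).

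Tgfb1 and Tgfb2, ligands of the TGF-beta branch, were also higher in satellite-like cells of TA-DMD. Tgfb1 had 9.02 CPM (1.86 to 26.3) in TA-WT, from 3 UMIs, 79.5 (61 to 102) in TA-DMD, from 62 UMIs, and 9.19 and 12.8 in EOM-WT and EOM-DMD. The ratio in TA was 8.82 (2.88 to 43.9), with a log2 ratio of 2.23, or 1.54 after thinning to 1000 UMIs. Thinning also turned the log2 ratio of Tgfb1 in EOM against TA-DMD from -1.97 to 0.16. Tgfb2 had 69.1 CPM (43.8 to 104), 164 (137 to 195), 109 (86.8 to 135) and 101 (84.3 to 120). Its 2.37-fold difference in TA (1.52 to 3.88) was a log2 ratio of 1.14, which was 0.44 after thinning. Tgfbr2, the type II TGF-beta receptor, had 3, 32, 7 and 10 UMIs and was 4.55-fold higher in TA-DMD (1.42 to 23.2), at 41 against 9.02 CPM.

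Pmepa1, a target of TGF-beta that limits the signal by binding SMADs, was lower with the DMD label in satellite-like cells of both muscles. It stood at 60.1 CPM (36.7 to 92.8), 15.4 (7.95 to 26.9), 144 (119 to 174) and 35.3 (25.7 to 47.4) in TA-WT, TA-DMD, EOM-WT and EOM-DMD. Both libraries labelled DMD were below the library labelled WT of the same muscle, and the levels of TA rest on 20 and 12 UMIs. The difference was 3.91-fold (1.82 to 8.76) in TA and 4.09-fold (2.86 to 5.94) in EOM, and within cluster 11 the log2 ratios were -1.03 and -1.74. Of the ligand genes in EOM, Tgfb2 had a log2 ratio of -0.10 and Tgfb3 had -0.49, both short of 2-fold. Tgfb1 was low in both EOM libraries and went the other way, at the levels given above. In TA, Tgfb1 and Tgfb2 were higher with the DMD label while Pmepa1 was lower. A link between these ligands and Pmepa1 was not tested.

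Gdf15, a distant member of the family, had 99.2, 11.5, 40.7 and 15.3 CPM in satellite-like cells. Of the 33 UMIs in TA-WT, 28 came from 1 cell, and without that cell the log2 ratio in TA was -0.23 in place of -2.34. In EOM it was 2.67-fold lower (1.46 to 5.0) with the DMD label. Id1 in satellite-like cells of TA-DMD, 151 CPM against 36.1 in TA-WT, had 0.392 UMIs per cell. This is below the erythroid-like reference of 0.583, so it is not told apart from background. Id3 had 514, 804, 307 and 438 CPM, higher with the DMD label in both muscles by 1.56-fold (1.32 to 1.86) and 1.42-fold (1.22 to 1.67), short of 2-fold. The sum of 9 endothelial markers in satellite-like cells was 48.1, 587, 42 and 17.7 CPM and that of 8 fibroblast markers 2891, 4130, 2426 and 3272 CPM. That of 10 mural markers was 3062, 1378.5, 1572.5 and 922 CPM, lower with the DMD label in both muscles. The part of these lists in the results was not tested. Of 20 members tested in satellite-like cells of TA, 5 were higher and 3 lower, beside 6.75% and 5.47% of all 5855 genes, and the median log2 ratio was 0.30 beside -0.09. In EOM 0 were higher and 2 lower of 17, beside 1.44% and 2.25%.

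**Figure D4:**
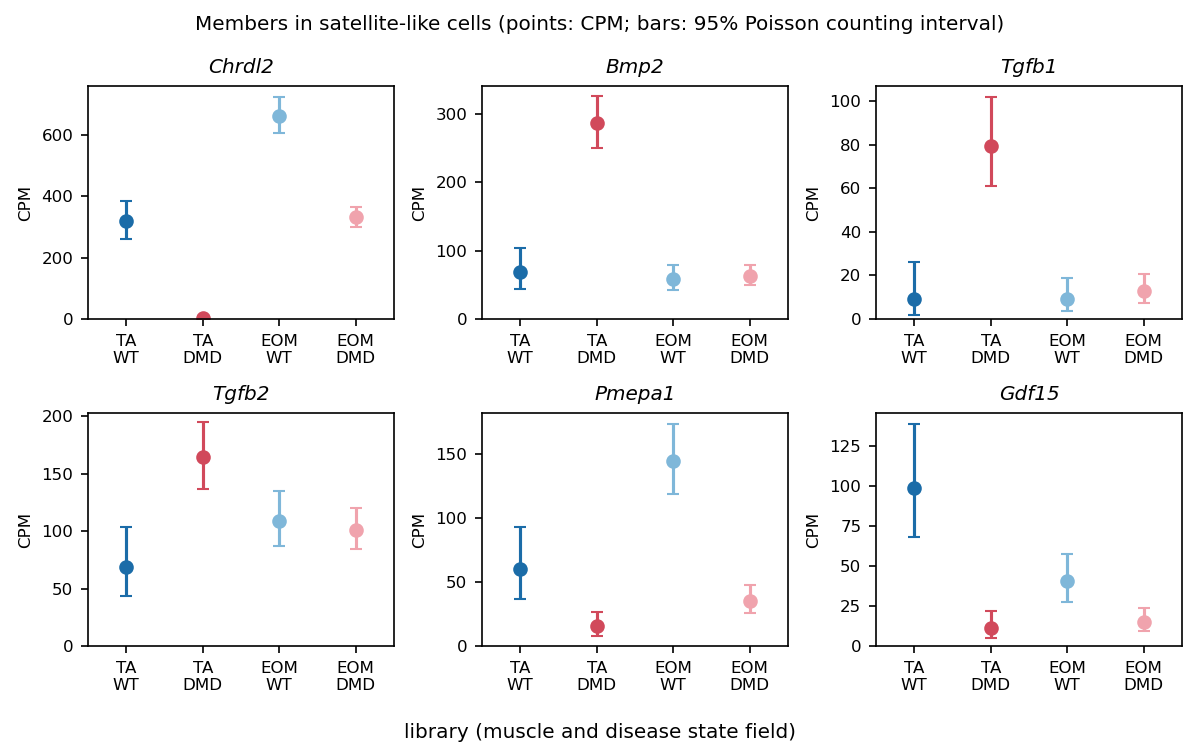
CPM (vertical axis, from 0) of 6 members in satellite-like cells of the 4 libraries, as points with 95% Poisson counting intervals. Chrdl2 is at 3.85 CPM in TA-DMD and at 319 or more elsewhere, Bmp2, Tgfb1 and Tgfb2 are highest in TA-DMD, and Pmepa1 is lower in the library labelled DMD of each muscle.

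In mural-like cells, the pericytes and smooth muscle cells of vessels, the ligands Tgfb2 and Bmp5 and the binding proteins Ltbp1 and Ltbp3 were lower in TA-DMD, while the ligand Bmp2 stood at 103 CPM in TA-WT and 106 in TA-DMD. Tgfb2 stood at 232 CPM (200 to 267) in TA-WT, 88.2 (78.9 to 98.2) in TA-DMD, 125 (93.6 to 164) in EOM-WT and 76.5 (58.2 to 98.7) in EOM-DMD. The library labelled WT was higher in both muscles, by 2.63-fold (2.19 to 3.15) in TA and 1.64-fold (1.11 to 2.42) in EOM. Bmp5, a BMP ligand, had 185 CPM (157 to 217), 68.7 (60.6 to 77.6), 101 (73 to 137) and 79.1 (60.5 to 102), so that it was 2.69-fold lower (2.19 to 3.30) in TA-DMD. The binding proteins Ltbp1, at 140, 50.6, 45.8 and 45.4 CPM, and Ltbp3, at 83.4, 32.5, 94 and 51.8 CPM, were 2.77-fold (2.18 to 3.51) and 2.57-fold (1.88 to 3.47) lower in TA-DMD. For Ltbp1 TA-WT was the only high library.

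The clusters of mural-like cells were shared unequally. Cluster 6, a pericyte cluster led by Kcnj8, held 119, 258, 69 and 100 cells in the order of libraries above, and cluster 12, also led by pericyte genes, held 17, 676, 1 and 11. Within cluster 6 the log2 ratios in TA were -0.76 for Tgfb2, -1.20 for Bmp5, -1.86 for Ltbp1 and -1.38 for Ltbp3, beside -1.30, -1.31, -1.31 and -1.14 for the class. Gdf11, a ligand related to myostatin, was highest in mural-like cells in each library, at 60.4, 46.3, 48.2 and 42.8 CPM, with overlapping intervals. The activin antagonist Fst had 54.4, 102, 16.9 and 14.3 CPM in the class, and 20 of its 45 UMIs in TA-WT came from 1 cell. Within cluster 6 it had 0 UMIs in TA-WT and in both EOM libraries.

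Other members of mural-like cells were higher with the DMD label in 1 muscle or both. Tgfb3 had 68.9 CPM (52.2 to 89.2), 42.9 (36.5 to 50), 41 (23.9 to 65.6) and 101 (79.9 to 126), and was thus lower with the DMD label in TA (1.61-fold, 1.17 to 2.18) and higher in EOM (2.47-fold, 1.45 to 4.45). Within cluster 6 the log2 ratio was 0.77 in TA, in place of -0.58, and 0.64 in EOM, in place of 1.12, so the direction in TA turned and was the same in both muscles there. In EOM it was 0.20 after thinning to 1000 UMIs. Id1 had 87, 194, 41 and 219 CPM and was 5.35-fold higher (3.24 to 9.39) in EOM-DMD. There 79 of its 169 UMIs came from 1 cell, and the log2 ratio was 1.39 without it in place of 2.17. With that cell counted, Id1 had 1.08 UMIs per cell in EOM-DMD, above the reference limit of 0.877. That limit rests on 10 erythroid-like cells, and it was not applied without that cell. In EOM-WT its 0.189 UMIs per cell lay under the limit of 0.235. Expression of Id1 in mural-like cells of EOM is thus not clearly told apart from background. In TA-DMD both Id1 and Bmp4 of mural-like cells lay below the erythroid-like reference. The sum of 9 endothelial markers in mural-like cells was 800, 1352, 586 and 1189 CPM, and that of 8 fibroblast markers 2432, 3890, 2456 and 3498.5 CPM. Both were higher with the DMD label in both muscles, and their part in these results was not tested. Of the members tested in mural-like cells, 3 were higher and 4 lower of 22 in TA, beside 3.59% and 2.36% of all genes, and 5 were higher and 1 lower of 21 in EOM, beside 4.51% and 2.65%.

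**Figure D5:**
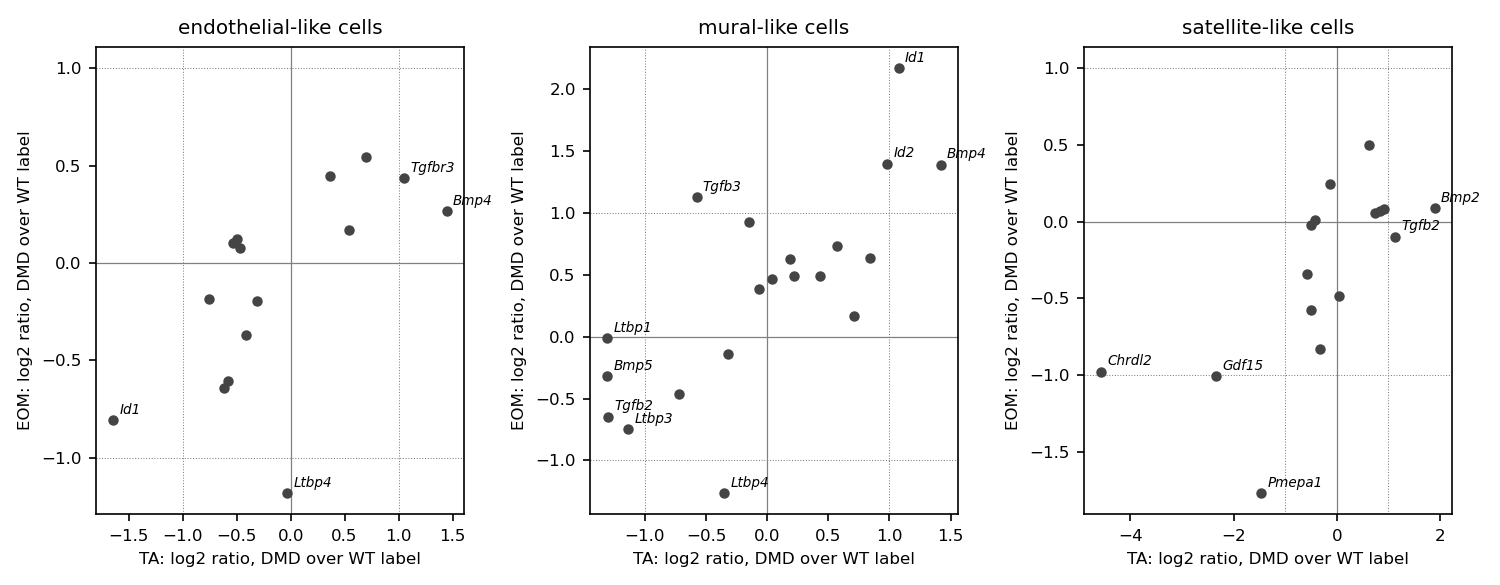
Log2 ratio, DMD over WT label, in TA (horizontal axis) and EOM (vertical axis) of each member tested in both muscles, for endothelial-like, mural-like and satellite-like cells. Dotted lines mark 2-fold, and names are given for members past it in either muscle, such as Chrdl2 at -4.57 in TA and -0.98 in EOM in satellite-like cells.

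Between the muscles the count depended on the class. Among libraries labelled WT, 1 of 16 members tested was higher in EOM in endothelial-like cells and 0 lower, beside 0.725% and 0.689% of all genes, the 1 being Ltbp4. In mural-like cells 0 were higher and 3 lower of 20, beside 1.11% and 2.89%, and in satellite-like cells 2 were higher and 3 lower of 18, beside 2.61% and 3.4%. In erythroid-like cells 0 were higher and 2 lower of the 2 tested, beside 0.909% and 37%. Among libraries labelled DMD, 2 of 15 were higher in EOM and 0 lower in endothelial-like cells (1.74% and 3.26% of all genes), the 2 being Smad7 and Id2. In mural-like cells 1 was higher and 3 lower of 23 (1.98% and 1.82%), and in satellite-like cells 1 was higher and 5 lower of 19 (2.92% and 7.59%). In FAP/fibroblast-like cells 3 were higher and 3 lower of 22 (2.66% and 4.12%), in Schwann-like cells 0 and 3 of 19 (2.72% and 6.39%), and in macrophage/monocyte-like cells 1 and 7 of 17 (3.01% and 7.53%). In macrophage/monocyte-like cells the summed markers of other classes were also lower in EOM-DMD than in TA-DMD, at 1017 and 151 CPM for endothelial, 2300 and 503 for fibroblast and 5340 and 105 for erythroid markers, and their part in the result was not tested.

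FAP/fibroblast-like cells could be compared between the labels in EOM only, since TA-WT held 9 of them. In EOM, 0 of 21 members tested were called, beside 0.725% higher and 0.84% lower of all 5239 genes, and the widest log2 ratios were 0.51 for Tgfbr3 and -0.54 for Ltbp4. Between the muscles labelled DMD several members differed. Bmp5 had 167 CPM (153 to 182) in TA-DMD, from 512 UMIs, 1.72 (0.741 to 3.38) in EOM-DMD, from 8 UMIs, and 13.4 (8.27 to 20.4) in EOM-WT. It was 97.1-fold lower (48.9 to 226) in EOM-DMD than in TA-DMD, and its 0.368 UMIs per cell in TA-DMD lay above the erythroid-like reference of 0.0443. In EOM mural-like cells had the highest Bmp5 level of any class in both libraries. In TA-DMD FAP/fibroblast-like cells had it, with tenocyte-like cells close to them (167 and 163 CPM).

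Bmp2 in FAP/fibroblast-like cells went the other way, at 46.9 CPM (39.5 to 55.2) in TA-DMD, 145 (127 to 165) in EOM-WT and 175 (164 to 188) in EOM-DMD. EOM-DMD was 3.74-fold above TA-DMD (3.13 to 4.50). Ltbp1 had 75.2 CPM in TA-DMD and 277 and 248 in the EOM libraries, 3.29-fold higher (2.85 to 3.81) in EOM-DMD, and Ltbp4 had 405, 1333 and 915 CPM, 2.26-fold higher (2.12 to 2.41). The receptor Tgfbr2 was 2.38-fold lower (1.99 to 2.86) in EOM-DMD, at 101 CPM in TA-DMD and 31.2 and 42.5 in the EOM libraries. The antagonist Fst had 184, 149 and 181 CPM and the ligand Gdf10 had 49.8, 115 and 106 CPM. Gdf10 was 2.12-fold higher (1.76 to 2.56) as a plain ratio in EOM-DMD, a log2 ratio of 0.95. Different clusters hold this class in the muscles, clusters 13 and 22, led by Apod, in TA and cluster 30, led by Ces1d, in EOM, so muscle and cluster cannot be told apart.

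Tenocyte-like cells, marked by Tnmd and Thbs4, were compared between TA-DMD (262 cells) and EOM-DMD (60 cells). Binding proteins were higher in EOM, with Ltbp4 at 173 CPM (138 to 214) in TA and 969 (873 to 1073) in EOM, Ltbp1 at 77.2 and 247 CPM and Ltbp3 at 134 and 294 CPM. These were 5.61-fold (4.42 to 7.19), 3.20-fold (2.17 to 4.79) and 2.19-fold (1.60 to 3.02) differences. The ligand Tgfb3 was 3.56-fold higher (2.37 to 5.48) in EOM, at 239 against 67.1 CPM, and Tgfbr3 2.16-fold higher (1.83 to 2.56). Bmp4 was higher in EOM by a log2 ratio of 1.17. Bmp5 was 12.4-fold lower (5.09 to 39.2), at 13.1 against 163 CPM. The other members called lower in EOM were Id1 (log2 ratio -3.2), Tgfb1 (-1.3), Tgfbr2 (-1.20) and Id2 (-1.17). Id1 had 0.607 UMIs per cell in TA-DMD, under the reference limit of 0.681, so it is not told apart from background. Median UMIs per cell of the class were 1038 in TA-DMD and 5871 in EOM-DMD, and the part of depth in these differences was not tested. In FAP/fibroblast-like and tenocyte-like cells alike, EOM-DMD was thus higher for Ltbp1 and Ltbp4 and lower for Bmp5. Of 23 members tested in tenocyte-like cells, 6 were higher and 5 lower in EOM, beside 6.36% and 9.33% of all 5552 genes.

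Among immune classes, Tgfb1 was highest, at 416 CPM (384 to 451) in macrophage/monocyte-like cells of EOM-DMD, 281 (252 to 312) in those of TA-DMD and 384 (308 to 473) in NK-like cells of TA-DMD. Id2, which natural killer cells need, reached 598 CPM (502 to 707) in NK-like cells. Gdf15 had 39.5 CPM in macrophage/monocyte-like cells of TA-DMD and 140 in those of EOM-DMD, 3.54-fold higher (2.57 to 4.96). It was lower in cluster 19, by a log2 ratio of -2.12, and higher in cluster 24, by 2.37, so the class value depends on which cells are taken. In Schwann-like cells, the glia of nerve, Bmp4 had 200 CPM (168 to 236) in TA-DMD and 22.3 (10.7 to 41) in EOM-DMD, 8.97-fold lower (4.73 to 19.1), and its 0.505 UMIs per cell in TA lay above the erythroid-like reference of 0.284. The activin subunit Inhba was highest in tenocyte-like cells of EOM-DMD (84 CPM) and Schwann-like cells of TA-DMD (73.8 CPM). The Schwann-like class is made of clusters that the libraries share unequally. In TA-DMD and EOM-DMD cluster 5 held 171 and 61 cells and cluster 28 held 53 and 7. Cluster 27, with Itgb4 and Cldn1 among its leaders, held 49 and 6. Ratios within these clusters are not given here.

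Myofibre-like cells gave little on their own. In TA 5 of 12 members tested were higher in the library labelled DMD and 0 lower, beside 13.3% and 12.4% of all genes, and in EOM against TA-DMD 0 were higher and 10 of 11 lower, beside 14.5% and 25.2%. In TA-DMD every member lay at or below the upper limit of the erythroid-like reference in these cells except Fst and Pmepa1, at 0.0581 and 0.0523 UMIs per cell. In these cells the sum of 8 fibroblast markers was 18.4 CPM in TA-WT, 1772 in TA-DMD and 192 in EOM-DMD, that of 10 mural markers 40.5, 571 and 84.1 CPM, and that of 9 endothelial markers 1564, 1314 and 28.8 CPM. Their part in these counts was not tested. Mstn, the myostatin gene, which muscle fibres are known to secrete, was at or under 10.2 CPM in every class of at least 50 cells. Grem1, a BMP antagonist, reached 11.4 CPM in FAP/fibroblast-like cells of EOM-WT and was at 0 in those of the libraries labelled DMD.

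A list of 57 other gene symbols of the pathway, of which 56 are in the feature table, was counted by the same rule. The symbol not found was Ctgf, while Ccn2 was found. Without erythroid-like cells, 20 gene and class pairs were higher and 2 lower of 80 in TA-DMD against TA-WT, beside 6.65% and 5.41% of all gene and class pairs, and 4 were higher and 0 lower of 78 in EOM, beside 2.09% and 1.68%. Between the muscles the counts were 3 higher and 3 lower of 57 among libraries labelled WT, beside 1.47% and 2.34%, and 8 higher and 37 lower of 165 among libraries labelled DMD, beside 4.11% and 7.52%. Of the 10 with the widest ratio, 6 (Dcn, Tsc22d1, Id4, Hes1, Ccn2 and Fkbp1a) had it in erythroid-like cells of TA. Tgfbi, which encodes a matrix protein induced by TGF-beta, was 3.43-fold higher (2.73 to 4.34) in tenocyte-like cells of EOM-DMD than in those of TA-DMD, and Thbs1, which can activate latent TGF-beta, was 6.45-fold lower (2.76 to 18.4). The receptor Eng, known from vessels, was 8.06-fold lower (4.89 to 14.1) in macrophage/monocyte-like cells of EOM-DMD than in those of TA-DMD, where the summed endothelial markers were lower too (151 against 1017 CPM), and their part in it was not tested. The erythroid-like reference was computed for members only.

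Across the 30 class and library pairs, Id1 was most like Anxa3 (Pearson r = 0.945), Adgrg1 (0.942) and the endothelial cadherin gene Cdh5 (0.938), Ltbp4 like Grb10 (0.929), Ackr3 (0.895) and Ltbp1 (0.887), and Gdf10 like Osr1 (0.937), Lvrn (0.930) and Pdgfra (0.906). The pairs share libraries and depth, and these values describe likeness of pattern only.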

How the data were processed

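Cells from enzymatically digested muscle were captured with droplet 3′ chemistry, per the labels' protocols. The authors deposited UMI counts per gene and cell, raw whole numbers per the file headers, for which the headers name Cell Ranger 4.0.0 and the submitters' processing notes name rn6. Neither annotation nor read filters are stated in the sources used here. Cells with at least 500 UMIs, 200 genes and at most 20% mitochondrial UMIs were kept. Scrublet's own threshold marked 0 to 16 cells per library, so the top scores were removed at 0.8% per 1000 cells. Clustering used scanpy 1.11.5 (2000 variable genes, 30 components, 15 neighbours, Leiden resolution 1), giving 32 clusters. Names were rebuilt from markers, so a difference from the study may come from them. Counts were summed per class and library and scaled to CPM. Intervals are exact Poisson and Clopper-Pearson at 95%, and a bound on a group at 0 uses 3 counts over that group. A share of cells or a p-value across libraries is not given, since each group has 1 library.

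The text names members, and the 10 other pathway genes of widest ratio at 100 CPM or more, of which 1 is not reported here. Likeness is Pearson r over log2(CPM + 10). Members and lists were chosen with earlier results of these data known. The comparison code was tested on simulated data. Alternatives were another pseudocount, TMM scaling (edgeR 4.0.16), stricter cell filters, no doublet removal, another resolution, cells thinned to 1000 UMIs, no minimum, cells weighted equally, a level limit against free RNA, and 4 chosen after seeing the data: leaving out erythroid-like cells, levels above the erythroid-like reference, single clusters, and leaving out the cell with most UMIs. Thinning left out cells with fewer than 1000 UMIs.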

Additional observations from a re-analysis of the deposited data

Results flagged for a closer look

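Tgfb3, a TGF-beta ligand, differed in opposite directions between the muscles in mural-like cells. The log2 ratio of the library labelled DMD over the one labelled WT was -0.58 in TA and 1.12 in EOM. The difference between the muscles was not tested, since each group has 1 library. Within cluster 6, the mural-like cluster with at least 50 cells in every library, the ratios were 0.77 in TA and 0.64 in EOM, so the directions did not differ there.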

How the results depend on the processing

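No paired analysis was possible because each group has 1 library, and for the same reason no replicate could be left out. Of 711 values of 79 named results under the alternatives, 514 kept their direction and stayed close, 189 moved and 8 changed direction or came to 0. Of the 28 member pairs higher in TA labelled DMD, 15 remained in number under the stricter cell filter and also without erythroid-like cells, and 18 after thinning. Above the erythroid-like reference 9 remained, of the 15 outside erythroid-like cells. In EOM labelled DMD over WT the 5 higher pairs became 0 under the stricter cell filter, 3 with no doublets removed and 2 above the reference, which in EOM labelled DMD rests on 10 erythroid-like cells. In EOM over TA labelled WT the 3 higher pairs became 1 and the 8 lower pairs 2 under the stricter filter. The 8 became 5 both under the level limit against free RNA and above the reference, which leaves out the 2 pairs of erythroid-like cells. In EOM over TA labelled DMD the 36 lower pairs became 17 above the reference. Some classes fell under 50 cells with the stricter cell filter, so their results could not be recomputed under it. In the contrasts of label these were satellite-like cells in TA and mural-like cells in EOM. Between the muscles they were mural-like and satellite-like cells with the WT label and Schwann-like cells with the DMD label. All 5 higher pairs of the EOM contrast lay in mural-like cells, so their fall to 0 came with the loss of that class. The cause of the other changes was not tested.

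Among members called 2-fold, the log2 ratios that turned were Id1 in erythroid-like cells of TA with TMM scaling (-0.23, where that scaling shifted all genes by -3.17), Gdf15 in satellite-like cells between the muscles labelled WT without the cell with most UMIs (1), and, between the muscles labelled DMD, Smad7 (-0.38) and Id2 (-0.57) of endothelial-like cells within cluster 4, Gdf15 of macrophage/monocyte-like cells within cluster 19 (-2.12), and Tgfb1 of satellite-like (0.16) and Tgfbr2 of tenocyte-like cells (0.32) after thinning. Fst in mural-like cells between the muscles labelled WT came to 0 within cluster 6, which held 0 UMIs of it. Of ratios short of 2-fold, Tgfb3 in mural-like cells of TA turned to 0.77 within cluster 6 and Bmp4 in endothelial-like cells of EOM was below 0 in 4 of 4 clusters. The cause was not tested. In the other contrasts TMM scaling shifted all genes by -0.09 to 0.31 outside erythroid-like cells. The 56 satellite-like cells of TA labelled WT limit what could be detected there.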
